A study of Rattus norvegicus with 9 samples.

Results

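A set of 10 selenoprotein genes was followed in fractured rat femurs: Selenow, Selenop, Selenom, Selenok, Selenos, Selenof, Gpx1, Gpx3, Gpx4 and Txnrd1. They were picked by symbol among the protein-coding rows of a table of 35360 genes, and all 10 were found. The set was built around Selenow because its reads were far fewer in the ALN gel group, so the ALN gel versus Gel values below describe that choice and carry no test. The middle end of femoral fractures was sampled, and messenger RNA was sequenced in 9 libraries, 3 in each of 3 groups. The Gel group received the gel alone, the ALN gel group the gel with the bisphosphonate called ALN, and the Mg-ALN gel group the gel with a material made of magnesium and ALN. The series title names osteoporotic fracture repair with an injectable bone adhesive, and its design text asks whether magnesium counters bone fibrosis attributed to ALN. The labels give no strain, sex, age, dose or time after fracture, and no unfractured or gel-free group was analysed here. Nor do they state whether each replicate came from its own animal. The p-values weigh group differences against the spread of these samples only, and that spread may be technical.

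Selenoproteins carry selenocysteine, an amino acid inserted at a UGA codon with the help of a hairpin (SECIS) in the 3' end of the messenger RNA. Many act in thiol and peroxide chemistry: glutathione peroxidases remove peroxides, thioredoxin reductases keep thioredoxin reduced, and several small members sit in the endoplasmic reticulum, where secreted proteins such as collagen fold. Their messages are known to respond unequally to selenium supply. In mouse, Selenow has been studied in bone, where RANKL, the cytokine that drives osteoclast formation, lowers its transcript.

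The promoters of the 4 members with the widest differences between groups involving the Mg-ALN gel are shown so that their sequence can be read beside their values. They come from RefSeq on GRCr8 and run from 250 bases before to 50 after the annotated start, 5′ to 3′. All 10 members matched a promoter, in 14 entries, and 3 members had several starts. Capitals mark matches, on either strand, to 3 motifs. The antioxidant response element was searched for as TGACNNNGC. The GC box was searched for by its core, GGGCGG. The TATA box was searched for by its usual core letters, TATAAA. In Selenok the second antioxidant response element and a GC box share letters. Selenow lies at chr1:85732654-85732953 on the minus strand, Selenom at chr14:82619203-82619502 on the plus strand, Selenok at chr16:5158351-5158650 on the plus strand, and the second of 2 Selenop starts at chr2:54225662-54225961 on the plus strand.
Selenow: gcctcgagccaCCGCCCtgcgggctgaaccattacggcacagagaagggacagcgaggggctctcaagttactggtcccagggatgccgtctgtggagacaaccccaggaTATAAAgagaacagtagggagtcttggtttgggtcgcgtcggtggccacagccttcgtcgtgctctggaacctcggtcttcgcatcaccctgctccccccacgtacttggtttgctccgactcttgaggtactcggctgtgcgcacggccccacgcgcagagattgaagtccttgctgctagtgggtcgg
Selenom: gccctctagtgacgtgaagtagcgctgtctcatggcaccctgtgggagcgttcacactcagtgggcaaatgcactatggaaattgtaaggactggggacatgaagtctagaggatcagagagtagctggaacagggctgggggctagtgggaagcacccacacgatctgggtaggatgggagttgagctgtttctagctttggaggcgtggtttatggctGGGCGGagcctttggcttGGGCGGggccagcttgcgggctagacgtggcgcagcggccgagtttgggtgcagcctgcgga
Selenok: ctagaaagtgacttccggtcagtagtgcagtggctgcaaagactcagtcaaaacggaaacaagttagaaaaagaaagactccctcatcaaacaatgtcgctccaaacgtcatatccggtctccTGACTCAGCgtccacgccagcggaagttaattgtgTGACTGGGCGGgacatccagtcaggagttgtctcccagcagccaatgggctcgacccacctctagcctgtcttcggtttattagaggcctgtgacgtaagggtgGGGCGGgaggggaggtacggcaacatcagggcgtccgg
Selenop: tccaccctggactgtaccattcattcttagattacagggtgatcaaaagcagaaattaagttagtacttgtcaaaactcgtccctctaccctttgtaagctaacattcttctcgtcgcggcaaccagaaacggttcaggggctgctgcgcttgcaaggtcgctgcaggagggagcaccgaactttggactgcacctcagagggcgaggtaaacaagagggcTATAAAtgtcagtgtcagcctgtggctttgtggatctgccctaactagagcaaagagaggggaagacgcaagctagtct
Selenow held a TATA box at position -140 from the start and a GC box at -239. Selenom held 2 GC boxes, Selenok held 2 antioxidant response elements and 2 GC boxes, and the Selenop start shown held a TATA box at -29, while its other start held none of the 3 motifs. Over 33469 RefSeq promoters of the same length, 12.1% held the antioxidant response element, 33.1% the GC box and 14.2% the TATA box. These matches describe letters in the window only.

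Libraries held 13388689 to 18763270 counts. The share of counts from mitochondrial genes ran from 4.16% to 17.5% in Gel, 7.61% to 39.5% with ALN gel, then 10.6% to 31.6% in Mg-ALN gel, and its part in the results was not tested. Levels of 1 gene across libraries are given as CPM, counts scaled to a common library total, with library sizes adjusted by the TMM factors of edgeR. Differences are log2 fold changes from edgeR's quasi-likelihood test fitted on all 9 libraries and 15460 tested genes, with the standard error (SE) and, for tested values, the Benjamini-Hochberg adjusted p over those genes, two-sided, at a threshold of 0.05. Of the 10 members, 9 passed the filter on low counts, and Gpx4 did not. No gene passed the threshold in any of the 3 comparisons by edgeR (percent called 0% in each), while 8.2% of genes in ALN gel versus Gel, 9.19% in Mg-ALN gel versus ALN gel and 9.31% in Mg-ALN gel versus Gel had an unadjusted p below 0.05. DESeq2 called 133, 175 and 50 genes and limma-voom with quality weights 263, 2 and 0 in the same order. The comparisons share libraries, so values of a gene in them are not independent. All 7 osteoblast markers had counts in all 9 libraries. In bulk tissue, fewer cells of a type and less RNA per cell cannot be told apart.

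In the deposited table Selenow and Selenos lie on chromosome 1, Selenop and Selenof on 2, Gpx4 and Txnrd1 on 7, Gpx1 on 8, Gpx3 on 10, Selenom on 14 and Selenok on 16. No build of the table is given in the sources used here, and its positions differ from the RefSeq promoter coordinates above, which are on GRCr8. Selenos spans 126979575 to 126989344, Selenop 53109684 to 53114858 and Selenof 250600823 to 250633897, all on the plus strand. Txnrd1 spans 26946125 to 26984400 on the minus strand. Gpx1 spans 117117430 to 117118522, Gpx3 40247436 to 40255422, Selenom 83752393 to 83754973 and Selenok 6035926 to 6044239, all on the plus strand. RefSeq lists named pseudogenes of Selenow, Selenok and Gpx4. None of those names is a row of the count table, and whether their reads were counted elsewhere was not tested.

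Selenow, a small thioredoxin-fold protein of the cytosol that binds glutathione, was measured at 47.4, 41.2 and 42.9 CPM in the Gel libraries, 1.01, 2.51 and 7.29 with ALN gel, then 117, 52.7 and 58.9 with Mg-ALN gel. In TMM-scaled CPM the groups did not overlap: every ALN gel library lay below every Gel library, and every Gel library lay below every Mg-ALN gel library. The gene (ENSRNOG00000013548) lies on chromosome 1 at 77533148 to 77535681 on the minus strand, in the coordinates of the deposited table. Its raw counts were 666, 730 and 684, then 13, 40 and 120, then 1487, 884 and 927. Group means were 43.8 ± 3.21 in Gel, 3.60 ± 3.28 with ALN gel, then 76.2 ± 35.6 in Mg-ALN gel (SD, n = 3 each).

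**Figure D1:**
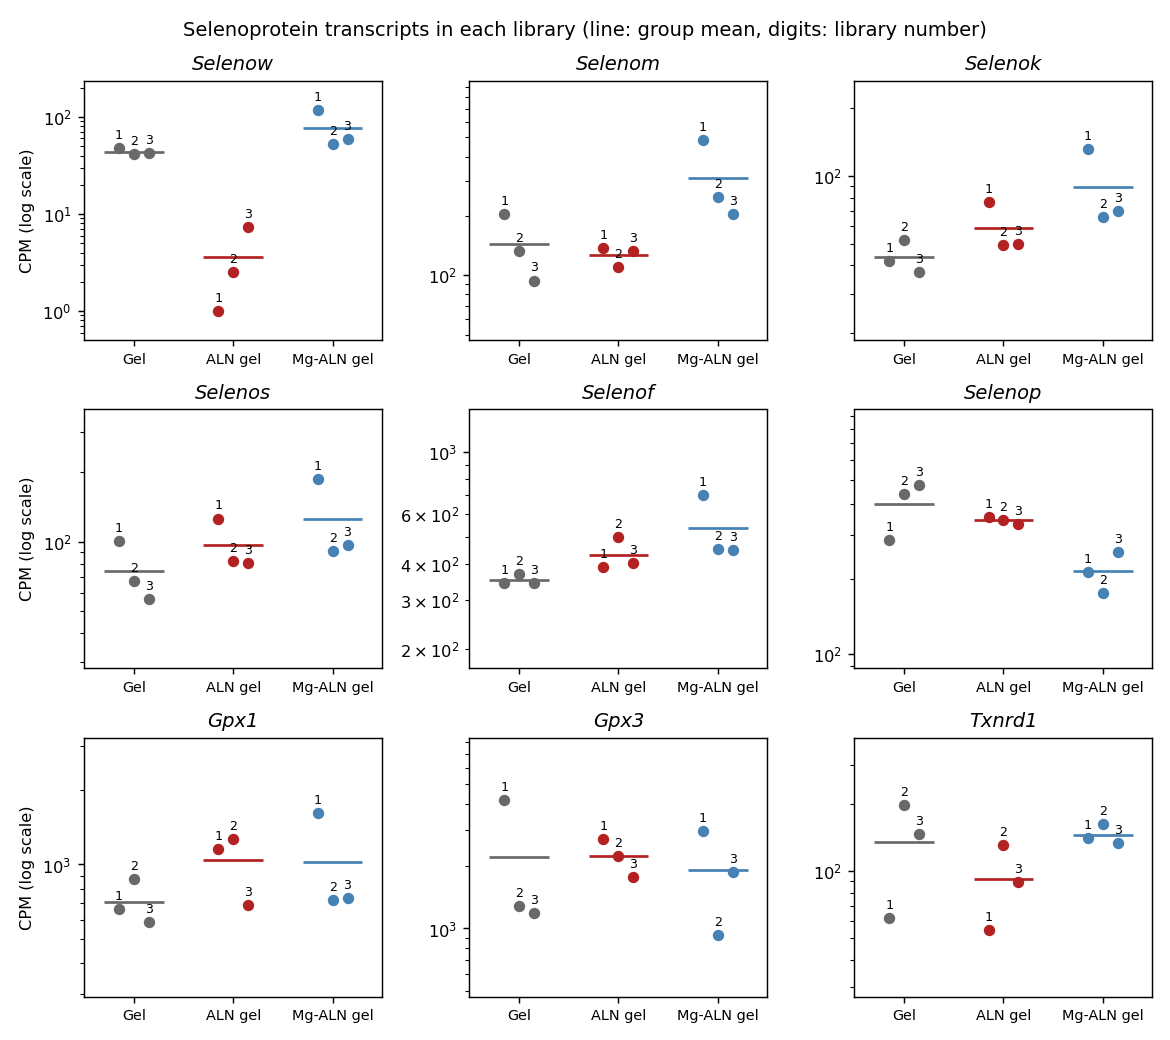
CPM of each selenoprotein in each library, with 1 panel per gene, libraries grouped by gel and a log scale on the vertical axis. Selenow is the gene whose 3 ALN gel libraries, at 1.01 to 7.29 CPM, sit far below both other groups.

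The ALN gel group was 12.2-fold below Gel in mean CPM, at a log2 fold change of -3.59 (SE 0.64). Among tested genes this was the 22nd lowest of 15460, a description, since the rule used this contrast. In the ALN gel group the counts were few. Exact binomial intervals, which cover counting error only, were taken on unscaled totals. The 3 libraries gave 0.772 (95% 0.411 to 1.32), 2.52 (1.80 to 3.43) and 8.29 (6.87 to 9.91) CPM. Those intervals do not touch, so the 3 ALN gel libraries differed from each other by more than counting error. Without ALN gel replicate 3 the log2 fold change was -4.67, and over all single omissions it ran from -4.67 to -3.15. In the Mg-ALN gel group Selenow stood 21.2-fold above ALN gel in mean CPM, at 4.39 (SE 0.66), also a description because the ALN gel libraries chose the gene. Omitting single libraries gave 3.94 to 5.44 there.

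Against Gel, the Mg-ALN gel group had a Selenow log2 fold change of 0.80 (SE 0.57, 95% interval -0.50 to 2.10, adjusted p = 0.651 by edgeR's quasi-likelihood test), which did not pass. Spread in this fit is estimated over all 9 libraries, so the ALN gel values that chose Selenow enter its SE and p. The SE was 0.42, 0.59 and 0.39 without ALN gel replicate 1, 2 and 3. On unscaled totals these 2 groups overlapped, with Gel replicate 3 at 51.1 CPM and Mg-ALN gel replicate 3 at 49.4. In TMM-scaled CPM the Mg-ALN gel libraries were higher than all Gel libraries, but Mg-ALN gel replicate 1 alone was at 117 CPM. Without that library the log2 fold change was 0.35. A second locus, LOC103689961 (described in the table as selenoprotein W-like), was examined after its values were seen. It lies on chromosome 1 at 77803475 to 77808513, also on the minus strand, and had 5, 15 and 6 counts in Gel, 7, 7 and 38 with ALN gel, then 31, 41 and 3 in Mg-ALN gel. Adding its counts to those of Selenow gave -3.23 (SE 0.62) for ALN gel versus Gel and 4.04 (SE 0.64) for Mg-ALN gel versus ALN gel. How reads were split between the 2 loci was not tested, so values of either are uncertain to that extent.

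Marker lists of other cells are given beside Selenow. Summed CPM of 8 osteoclast markers ran from 2230 to 18176 in Gel, 21471 to 31460 with ALN gel, then 3847 to 12374 in Mg-ALN gel, with only Dcstamp among the 8 at 0 in any library. Of the 7 osteoclast markers tested, 7 had a log2 fold change above 0 in ALN gel versus Gel (median 1.61), as did 49.8% of all tested genes, and 0 had one in Mg-ALN gel versus ALN gel (median -1.91), where 46.4% of all genes did. Selenow is also abundant in skeletal muscle, and the summed CPM of the 7 muscle markers matched of 10 ran from 61.7 to 10012 in Gel, 52.6 to 2164 with ALN gel, then 8.0 to 202 in Mg-ALN gel, with Ckm, Myh1 and Actn3 at 0 in at least 1 library. The sum of 10012 was in Gel replicate 3. Of the muscle markers, 7 of 7 had a log2 fold change below 0 in ALN gel versus Gel (median -1.08), as did 50.2% of all genes. The median muscle sum was 77.2 CPM in Gel and 1232 with ALN gel, opposite in direction to those log2 fold changes. In Mg-ALN gel versus ALN gel, 7 of 7 were also below 0 (median -3.39, 53.6% of all genes). The 7 osteoblast markers summed to 48352 to 108762 CPM in Gel, 24257 to 34723 with ALN gel, then 33425 to 40934 in Mg-ALN gel, so the Gel libraries lay above all others. Most of that sum was Col1a1, with 5142791 counts over the 9 libraries, beside 683148 for Spp1, the next highest. In ALN gel versus Gel, 3 osteoblast markers were above 0 and 4 below (median -0.58, 50.2% of all genes below). In Mg-ALN gel versus Gel, 7 of 7 had a log2 fold change below 0 (median -1.01), as did 52.2% of all genes. The 7 immediate early genes, which respond within minutes to stimuli and tissue handling, summed to 619 to 1355 CPM in Gel, 449 to 885 with ALN gel, then 1213 to 1574 in Mg-ALN gel. Of these, 7 of 7 were above 0 in Mg-ALN gel versus ALN gel (median 1.03), as were 46.4% of all genes. In ALN gel versus Gel, all 7 immediate early genes were below 0 (median -0.83), as were 50.2% of all genes. The 5 erythroid and 3 adipocyte markers tested were all above 0 in ALN gel versus Gel (49.8% of all genes). All of those were below 0 in Mg-ALN gel versus ALN gel (53.6% of all genes). Of 7 macrophage markers, 4 were above 0 and 3 below in each of these 2 comparisons. No gene of these lists passed the threshold by edgeR. Their part in the Selenow values was not tested.

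The endoplasmic reticulum members came next in the order of roles. Selenom, a thioredoxin-fold protein of the lumen, was at 205, 133 and 94.0 CPM in Gel, 137, 111 and 133 with ALN gel, then 483, 248 and 205 in Mg-ALN gel. The Mg-ALN gel libraries all lay above the ALN gel libraries, while the lowest of them, 204.6, lay just below the highest Gel library, 205.2. The log2 fold change was 1.30 (SE 0.39, 95% interval 0.43 to 2.17) versus ALN gel and 1.12 (SE 0.38, 0.25 to 1.98) versus Gel, with adjusted p = 0.496 and 0.530 in edgeR's quasi-likelihood test. Without Mg-ALN gel replicate 1 these were 0.84 and 0.65. Against Gel, ALN gel stood at -0.18 (SE 0.38), and at 0.16 without Gel replicate 1.

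Selenok, a membrane protein that works with the palmitoyltransferase Zdhhc6, was at 41.9, 52.0 and 37.4 CPM in Gel, 76.4, 49.1 and 49.8 with ALN gel, then 131, 65.8 and 69.7 in Mg-ALN gel. Mg-ALN gel and Gel libraries did not overlap, and the log2 fold change between them was 1.02 (SE 0.32, adjusted p = 0.530 by edgeR), or 0.63 without Mg-ALN gel replicate 1. Against ALN gel it was 0.61 (SE 0.32, adjusted p = 0.589 by edgeR). Selenos, a partner of the derlins and of Vcp in removing misfolded proteins, was at 101, 67.4 and 56.2 CPM in Gel, 126, 82.7 and 80.9 with ALN gel, then 188, 91.4 and 96.4 in Mg-ALN gel. All 3 groups overlapped, and Mg-ALN gel stood at 0.74 (SE 0.35, adjusted p = 0.532 by edgeR) versus Gel and 0.38 (SE 0.35, adjusted p = 0.758 by edgeR) versus ALN gel.

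Selenof, which binds the glycoprotein folding sensor Uggt1, was at 344, 368 and 343 CPM in Gel, 392, 498 and 402 with ALN gel, then 704, 454 and 450.0 in Mg-ALN gel. Every ALN gel and Mg-ALN gel library lay above every Gel library. The log2 fold change was 0.29 (SE 0.25) for ALN gel versus Gel, 0.32 (SE 0.25, adjusted p = 0.709 by edgeR) for Mg-ALN gel versus ALN gel, and 0.61 (SE 0.25, adjusted p = 0.530 by edgeR) for Mg-ALN gel versus Gel. Without Mg-ALN gel replicate 1 the last was 0.36.

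Selenop, the secreted carrier that delivers selenium to tissues, was lowest in the Mg-ALN gel group. It was at 287, 438 and 478 CPM in Gel, 354, 346 and 331 with ALN gel, then 213, 175 and 258 in Mg-ALN gel. Every Mg-ALN gel library lay below every library of both other groups. The log2 fold change was -0.90 (SE 0.25, 95% interval -1.47 to -0.32) versus Gel and -0.67 (SE 0.25, -1.25 to -0.10) versus ALN gel, with adjusted p = 0.530 and 0.502 in edgeR's quasi-likelihood test. Single omissions gave -1.09 to -0.78 and -0.82 to -0.50, so the direction did not rest on 1 library. ALN gel stood at -0.22 (SE 0.25) versus Gel. Of the 3 receptors that take up Selenop, Lrp1 had group means of 959 ± 331, 479 ± 223 and 865 ± 352 CPM in Gel, ALN gel and Mg-ALN gel (SD, n = 3), Lrp8 had 7.26 ± 1.47, 8.57 ± 1.51 and 9.67 ± 6.50, and Lrp2 was near the detection limit at 0.510 ± 0.463, 0.164 ± 0.153 and 0.805 ± 0.987. None passed the threshold in edgeR, where the lowest adjusted p over the 3 receptors and comparisons was 0.603, and 0 had an unadjusted p below 0.05. The median of the 3 was -1.0, 0.85 and 0.42 in ALN gel versus Gel, Mg-ALN gel versus ALN gel and Mg-ALN gel versus Gel.

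**Figure D2:**
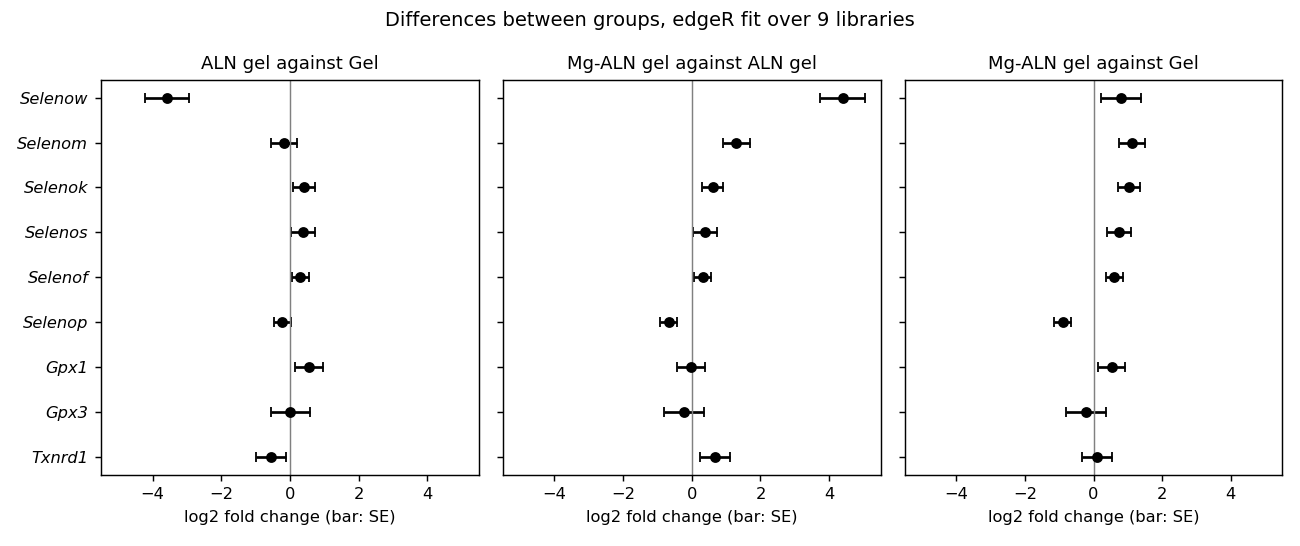
Log2 fold change of the 9 tested selenoproteins in each of the 3 comparisons, with bars for the SE of the edgeR fit. Selenow stands apart at -3.59 and 4.39 in the comparisons that involve ALN gel, and Selenop is below 0 in all 3.

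Values of the peroxidases overlapped between groups. Gpx1, the cytosolic glutathione peroxidase, was at 660, 877 and 586 CPM in Gel, 1157, 1270 and 687 with ALN gel, then 1616, 719 and 733 in Mg-ALN gel, and the groups overlapped. Its log2 fold change was 0.55 (SE 0.40) for ALN gel versus Gel, -0.02 (SE 0.40, adjusted p = 0.990 by edgeR) for Mg-ALN gel versus ALN gel, and 0.53 (SE 0.40, adjusted p = 0.664 by edgeR) for Mg-ALN gel versus Gel. Gpx3, the secreted plasma peroxidase, was at 4179, 1291 and 1188 CPM in Gel, 2722, 2236 and 1767 with ALN gel, then 2953, 934 and 1880 in Mg-ALN gel. A single Gel library was over 3 times the others, and the log2 fold changes were 0.01, -0.22 and -0.21 in ALN gel versus Gel, Mg-ALN gel versus ALN gel and Mg-ALN gel versus Gel (SE 0.58 each, adjusted p = 0.923 and 0.920 by edgeR for the last pair). Intervals of -1.53 to 1.09 and -1.52 to 1.10 leave room for more than 2-fold differences.

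Gpx4, which reduces lipid hydroperoxides, had only 4, 2 and 1 counts in Gel, 13, 1 and 4 with ALN gel, then 0, 5 and 19 in Mg-ALN gel, and was not tested. The library with 0 counts allows up to 0.218 CPM on its unscaled total. Of its span, chromosome 7 from 12516352 to 12519154, 82.2% (2303 of 2803 bases) is shared with Sbno2 on the opposite strand, which had 1965 to 10347 counts, and the labels' protocols do not mention strand marking. The part of this overlap in the low counts was not tested, and no level of Gpx4 is read from them. Txnrd1, the cytosolic thioredoxin reductase, was at 61.4, 199 and 147 CPM in Gel, 54.5, 131 and 89.8 with ALN gel, then 141, 163 and 134 in Mg-ALN gel. Every Mg-ALN gel library exceeded every ALN gel library, yet the log2 fold change of 0.67 (SE 0.43, 95% interval -0.31 to 1.65) had an adjusted p = 0.658 by edgeR. It was -0.56 (SE 0.43) for ALN gel versus Gel and 0.10 (SE 0.43, adjusted p = 0.945 by edgeR) for Mg-ALN gel versus Gel.

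Selenow, whose ALN gel values chose the set, is left out of the counts that use that group. Counting groups that do not overlap, 3 of the 8 other tested members separated in Mg-ALN gel versus ALN gel (Selenom and Txnrd1 higher, Selenop lower), where 16.5% of all tested genes did so, 6.76% higher and 9.77% lower. In Mg-ALN gel versus Gel 4 of 9 separated (Selenow, Selenok and Selenof higher, Selenop lower), versus 18.3% of all genes, 9.76% higher and 8.56% lower. In ALN gel versus Gel 1 of the 8 separated (Selenof higher), versus 16.1%, 11.1% higher and 5.03% lower, and nothing is read from that count. The median log2 fold change of the 8 was 0.15, 0.35 and 0.57 in ALN gel versus Gel, Mg-ALN gel versus ALN gel and Mg-ALN gel versus Gel, beside -0.00, -0.04 and -0.03 over all tested genes. By edgeR, unadjusted p below 0.05 was seen for 2 of 8 members other than Selenow in the second comparison (Selenop and Selenom), versus 9.19% of all genes. In the third it was seen for 4 of 9 (Selenop, Selenom, Selenok and Selenof), versus 9.31% of all genes. None of these members passed the adjusted threshold in those comparisons by edgeR, DESeq2 or limma-voom.

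Over protein-coding genes, differences between groups also varied with gene length. The 10 members are 267 to 3430 bases long in the table, median 1011.5, beside 2374 for the tested protein-coding genes. Protein-coding genes of up to 1000 bases had a median log2 fold change of 0.40 in ALN gel versus Gel, 0.07 in Mg-ALN gel versus ALN gel and 0.52 in Mg-ALN gel versus Gel (1464 genes), while those over 3000 bases had -0.14, -0.13 and -0.24 (4922 genes). In Mg-ALN gel replicate 1, log2 CPM minus each gene's mean over the libraries had a median of 0.61 for the short genes and -0.38 for the long genes. That library was the highest of the 9 for 6 of the 9 tested members, versus 18.5% of all tested genes, and Gel replicate 3 was the lowest for 5 of 9, versus 13.4%. Selenow, the shortest member at 267 bases, stood at -3.59 in ALN gel versus Gel. In Mg-ALN gel versus Gel, Selenop (609 bases) stood at -0.90 and Selenom (675 bases) at 1.12. The part of length in the members' values was not tested.

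**Figure D3:**
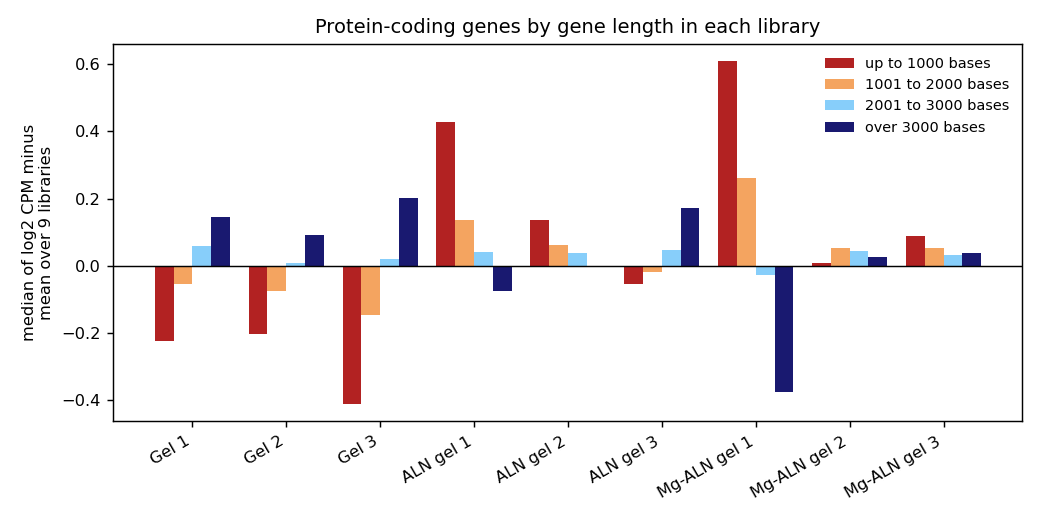
Median over protein-coding genes of log2 CPM minus the gene's mean over the 9 libraries, for 4 classes of gene length in each library. The median of the genes up to 1000 bases is 0.61 in Mg-ALN gel replicate 1 and -0.41 in Gel replicate 3.

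Levels were compared between genes per length, as the FPKM values the authors deposited, which divide by gene length and library size. The lengths are those in the deposited table, such as 267 bases for Selenow and 609 for Selenop. Whether each length covers the whole message was not tested, so the order between genes is uncertain to that extent. Gpx3 led at a mean of 1420 ± 683 FPKM over the 9 libraries, then Gpx1 at 1039 ± 400, Selenop at 517 ± 164, Selenof at 286 ± 75.8, Selenom at 283 ± 179, Selenow at 153 ± 136, Selenok at 86.6 ± 39.6, Selenos at 84.4 ± 33.9 and Txnrd1 at 35.8 ± 14.0 (SD, n = 9). Selenof and Selenom were not apart, the first being higher in 5 of 9 libraries, and neither were Selenok and Selenos, at 5 of 9. Selenos exceeded Txnrd1 in 9 of 9. Selenow ranked 6th in Gel (163 ± 9.45 FPKM), 9th in ALN gel (13.1 ± 11.9) and 6th in Mg-ALN gel (283 ± 137; SD, n = 3 each). The order differed between groups: Selenop was 3rd in Gel and ALN gel and 5th in Mg-ALN gel, while Selenom was 5th in both of the former and 3rd in Mg-ALN gel.

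**Figure D4:**
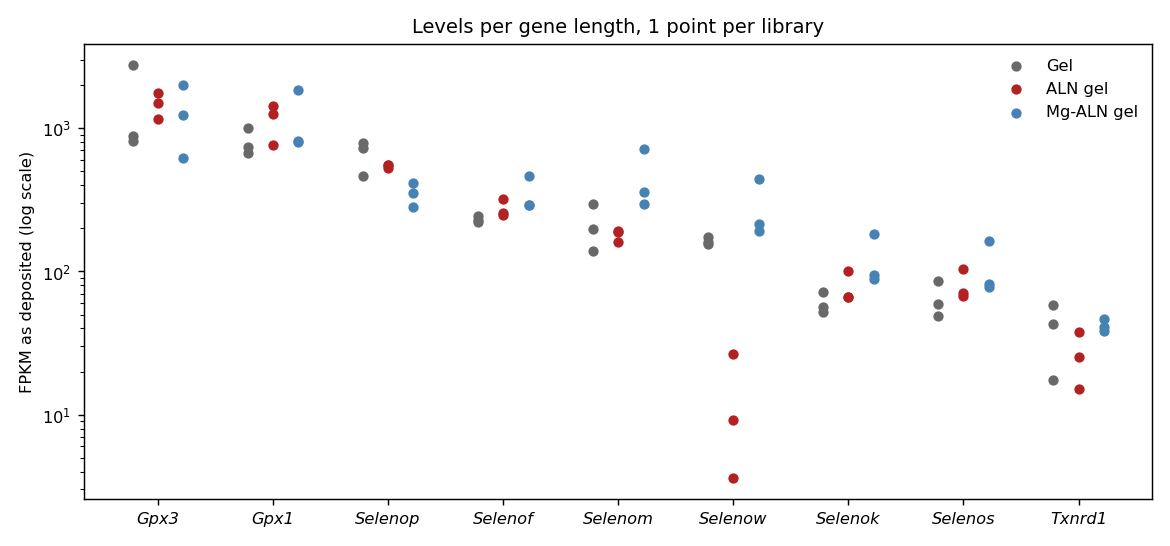
FPKM as deposited for the 9 tested selenoproteins, 1 point per library, ordered by mean over the 9 libraries, on a log scale. Selenow in ALN gel, at a mean of 13.1, falls below all members but Gpx4, which is not drawn.

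Among the other selenoproteins, 10 of the 13 matched of 14 listed were tested, and 0 passed in any comparison by edgeR. Of the 10, 0, 1 and 2 had an unadjusted p below 0.05 by edgeR, versus 8.2%, 9.19% and 9.31% of all genes. Selenoh, a nucleolar redox protein, had 48.6 ± 7.61, 64.4 ± 3.61 and 88.3 ± 33.6 CPM in Gel, ALN gel and Mg-ALN gel (SD, n = 3), and Msrb1, which repairs oxidised methionine, had 69.3 ± 15.4, 71.7 ± 12.5 and 136 ± 66.8. For Mg-ALN gel versus Gel these were 0.86 (SE 0.28) and 0.98 (SE 0.35) on the log2 scale, with adjusted p = 0.530 for both by edgeR. Sephs2, which makes the selenium donor, stood at 0.61 (SE 0.29) there, Selenoo at -0.34 (SE 0.22), Txnrd3 at -0.46 (SE 0.35), Dio3 at 0.43 (SE 1.51), Txnrd2 at 0.20 (SE 0.34) and Selenoi at -0.39 (SE 0.37), none past the threshold. The list's median was 0.02, 0.02 and 0.04 in the 3 comparisons. Dio3 and Sephs2 carry the biotype pseudogene in the table, so their counts are uncertain. Selenoo and Txnrd2 share part of their span with a gene on the opposite strand.

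Genes that make and decode selenocysteine formed a list of 10, all tested. Of these, 9 were above 0 in ALN gel versus Gel (median 0.21), where 49.8% of all genes were, and 9 were below 0 in Mg-ALN gel versus ALN gel (median -0.11), where 53.6% of all genes were. By edgeR 0 passed, and 0, 0 and 1 had an unadjusted p below 0.05 in the 3 comparisons, versus 8.2%, 9.19% and 9.31% of all genes. Pstk, the kinase that prepares the selenocysteine transfer RNA, had 20.5 ± 7.77, 30.5 ± 5.99 and 19.9 ± 2.26 CPM in Gel, ALN gel and Mg-ALN gel (SD, n = 3). Secisbp2l, a relative of the SECIS-binding protein, had 89.9 ± 9.24, 84.9 ± 12.2 and 55.8 ± 19.0, and stood at -0.69 (SE 0.27, adjusted p = 0.530 by edgeR) for Mg-ALN gel versus Gel, with no overlap. Sars1, which charges that transfer RNA with serine, stood at 0.34 (SE 0.19) for ALN gel versus Gel, also without overlap, Sepsecs at 0.28 (SE 0.26), Trnau1ap at 0.31 (SE 0.31), Eefsec at 0.32 (SE 0.34), Sephs1 at 0.13 (SE 0.24) and Trit1 at 0.04 (SE 0.29).

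Of the thioredoxin and glutathione partners, 25 of 26 were matched and tested and 0 passed by edgeR. In the 3 comparisons 2, 3 and 4 of the 25 had an unadjusted p below 0.05 by edgeR, versus 8.2%, 9.19% and 9.31% of all genes. The list's median was 0.18, 0.14 and 0.31, beside -0.00, -0.04 and -0.03 over all genes. Txnip, the inhibitor of thioredoxin, was at 269, 238 and 242 CPM in Gel, 394, 539 and 329 with ALN gel, then 220, 212 and 212 in Mg-ALN gel. No group overlapped another. Its log2 fold change was 0.75 (SE 0.23, adjusted p = 0.528 by edgeR) in ALN gel versus Gel and -0.97 (SE 0.23, adjusted p = 0.496 by edgeR) in Mg-ALN gel versus ALN gel. DESeq2 called Txnip in the latter (-0.94, adjusted p = 0.0105) and limma-voom with quality weights in the former (0.92, adjusted p = 0.0465), while neither tool called another gene of the 5 related lists. Hmox1, the haem-degrading stress enzyme, was at 117, 755 and 356 CPM in Gel, 48.7, 184 and 87.7 with ALN gel, then 299, 295 and 481 in Mg-ALN gel, at -1.94 (SE 0.68) and 1.75 (SE 0.67), adjusted p = 0.554 and 0.507 by edgeR. Txn1, thioredoxin itself, stood at 1.08 (SE 0.40, adjusted p = 0.530 by edgeR) for Mg-ALN gel versus Gel, and Gpx7, a peroxidase of the endoplasmic reticulum without selenocysteine, at 0.63 (SE 0.24, adjusted p = 0.502 by edgeR) for Mg-ALN gel versus ALN gel. Of the 12 tested partners in endoplasmic reticulum quality control, 0 passed by edgeR and 0 had an unadjusted p below 0.05, and the median was -0.07, 0.05 and 0.07. Herpud1, Sel1l and the others named here act in clearing or refolding misfolded proteins or in the unfolded protein response. Herpud1, Sel1l, Dnajb9 and Xbp1 stood at -0.60 (SE 0.30), -0.56 (SE 0.31), 0.21 (SE 0.22) and -0.36 (SE 0.32) for Mg-ALN gel versus Gel.

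Over the 9 libraries, the 5 protein-coding genes whose log2 CPM most resembled Selenow by Pearson r among 13828 candidates were Serpinh1 (0.971), Maged1 (0.944), Pofut2 (0.943), Rcn3 (0.937) and Cthrc1 (0.922). Of all candidates, 17 had r above 0.9. These points share libraries, depth and group, and r is given as a description. Serpinh1, the collagen chaperone, was at 1844 ± 290 CPM in Gel, 999 ± 273 with ALN gel, then 2035 ± 129 in Mg-ALN gel (SD, n = 3), a ratio between groups far smaller than that of Selenow. Pofut2 adds fucose to thrombospondin repeats of secreted proteins, Rcn3 is a calcium-binding protein of the secretory pathway, Cthrc1 is a secreted protein of collagen-rich tissue, and Maged1 is an adaptor of the MAGE family. Maged1 was at 189 ± 7.62, 103 ± 42.9 and 221 ± 32.5 CPM, and Rcn3 at 313 ± 72.2, 188 ± 32.9 and 350.5 ± 27.1, in Gel, ALN gel and Mg-ALN gel (SD, n = 3). Their low ALN gel values follow from this choice.

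**Figure D5:**
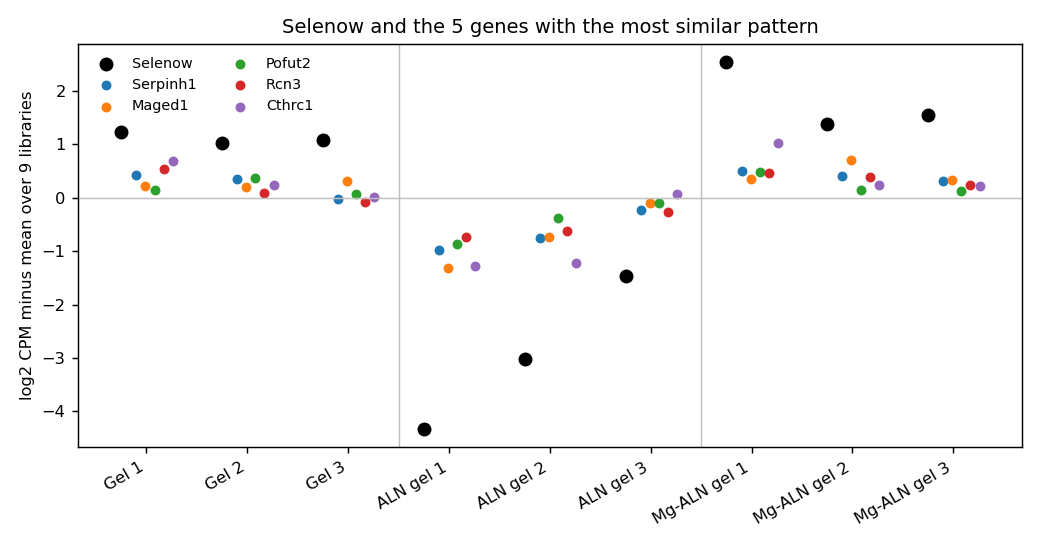
Log2 CPM of Selenow and of the 5 genes most like it, each minus its own mean over the 9 libraries, with libraries on the horizontal axis. All 6 genes are below their mean in ALN gel replicates 1 and 2, and Selenow spans the widest range.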

How the data were processed

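Poly-A RNA from 9 rat fracture samples was sequenced, and groups and replicate numbers were read from the sample titles. The authors deposited whole-number read counts per gene without normalization, the main values here, and FPKM, which were checked versus the counts: each equalled the count over gene length and 1 constant per library, 0.804 to 1.19 times the column total. Tools listed without roles in the submitters' processing notes are featureCounts 1.5.0-p3, HISAT2 2.0.5, fastp, edgeR 3.22.5, StringTie 1.3.3b and DESeq2 1.20.0. No build is given in the sources used here.

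Counts were tested in R 4.3.3 with edgeR 4.0.16 (filterByExpr, TMM, glmQLFit and glmQLFTest, 15460 genes, one fit over 9 libraries), and alternatives used DESeq2 1.42.0 and limma 3.58.1. The SE is the absolute log2 fold change over the square root of F. The code of the fit was also run on simulated counts with the same spread for every gene, which cannot show how it performs on these libraries. The members and gene lists were chosen with earlier results of these data known. Named are the members, up to 8 genes each of the other selenoproteins and the decoding genes and up to 4 of each other list by lowest unadjusted p, the 5 genes most like Selenow, and genes overlapping a member. The likeness used log2 CPM with a prior count of 0.5. Deviations of same-numbered Gel and ALN gel libraries from their group means correlated at 0.341, 0.419 and 0.226 over genes, while the other 2 pairs of groups included values below 0.1. The labels do not say what a number stands for. Gene symbols were matched by name or synonym. Depth was 13388689 to 18763270 counts per library. The exact binomial intervals and the limit of 3 counts for a count of 0 cover counting error only.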

Additional observations from a re-analysis of the deposited data

How the results depend on the processing

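Alternatives were another normalization, no filter on low counts, DESeq2, limma-voom with quality weights, the replicate block, and omission of each library. The numbers of genes called, 0 in each comparison by edgeR, became 133 (ALN gel versus Gel), 175 (Mg-ALN gel versus ALN gel) and 50 (Mg-ALN gel versus Gel) with DESeq2, 263 and 2 in the first 2 comparisons with limma-voom, and 0 to 1 over single omissions in ALN gel versus Gel, the 1 without ALN gel replicate 3. Of the related genes, 1 was called by DESeq2 in Mg-ALN gel versus ALN gel and 1 by limma-voom in ALN gel versus Gel, Txnip in both. Small values changed sign. Gpx1 in Mg-ALN gel versus ALN gel was 0.016 with RLE size factors, 0.0010 without the filter and 0.016 with DESeq2, and -0.51 to 0.22 over single omissions. Gpx3 and Txnrd1 in Mg-ALN gel versus Gel were 0.010 and -0.073 with limma-voom, and -0.66 to 0.63 and -0.25 to 0.45 over single omissions. Gpx3 ran from -0.67 to 0.15 in Mg-ALN gel versus ALN gel and from -0.32 to 0.85 in ALN gel versus Gel, Selenom from -0.46 to 0.16 in ALN gel versus Gel, and Selenos from -0.038 to 0.61 in Mg-ALN gel versus ALN gel. The replicate block left 0 genes called in each comparison and gave Selenow -3.72 (SE 0.69) in ALN gel versus Gel and 4.51 (SE 0.72) in Mg-ALN gel versus ALN gel; it changed no call. The cause of these changes was not tested. Gpx4 had too few counts to read, and Selenow had 13 and 40 counts in 2 ALN gel libraries.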
